A study of Mus musculus with 9 samples.

Results

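The let-7 passenger strands are the minor products of the let-7 microRNA hairpins, and 10 of them were followed here through embryonic mouse kidneys with altered DROSHA: mmu-let-7a-1-3p, mmu-let-7b-3p, mmu-let-7c-1-3p, mmu-let-7c-2-3p, mmu-let-7d-3p, mmu-let-7e-3p, mmu-let-7f-1-3p, mmu-let-7f-2-3p, mmu-let-7g-3p and mmu-let-7i-3p. The species prefix mmu- is left out from here on. They were taken by name from the 1607 known mouse miRNA names with reads, and all 10 had reads in every library. The set was chosen by name after the read counts of these libraries had been seen, including an exchange of counts between let-7a-1-3p and let-7c-2-3p, so that exchange is given as a description without a test. Small RNA was sequenced from whole kidneys at embryonic day 16.5 in 9 libraries. The 3 controls were wild type, 3 libraries carried a DROSHA-E1147K transgene, and 3 were labelled DROSHA knockout. The series title sets these kidneys in the question of how loss or mutation of DROSHA affects kidney development and the formation of Wilms tumor, a childhood kidney cancer. The labels name neither the mouse lines, nor a promoter or Cre, nor the cells in which Drosha was altered, and they do not say whether each library came from its own embryo. Every p-value therefore reflects how far these libraries differ from one another, and that spread may be technical. Small RNA reads do not measure Drosha mRNA, so the genotypes were not checked by it.

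A let-7 hairpin is cut out of its primary transcript by DROSHA and trimmed by DICER to a short duplex. The 5p strand, called the guide, is usually kept in an Argonaute protein, where it represses messages through its seed (bases 2 to 8). The 3p strand, called the passenger, is usually discarded and degraded, although some remains detectable. Mature let-7 guides accumulate as tissues differentiate, and the RNA-binding proteins LIN28A and LIN28B hold them down in early embryonic tissue by binding the hairpin loop. DROSHA contains paired RNase III domains, each of which cuts 1 strand of the hairpin stem. The E1147K change lies in the domain that cuts the 5' side and recurs in Wilms tumor.

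The mature sequences, from RefSeq for GRCm38.p6, are shown because the results turn on which of them can be told apart by their letters. Capitals mark the seed, and the let-7a-5p guide stands last for comparison.
let-7a-1-3p: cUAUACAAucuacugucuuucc
let-7c-2-3p: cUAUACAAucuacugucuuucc
let-7b-3p: cUAUACAAccuacugccuuccc
let-7f-1-3p: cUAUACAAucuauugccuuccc
let-7f-2-3p: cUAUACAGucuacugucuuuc
let-7d-3p: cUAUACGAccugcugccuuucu
let-7e-3p: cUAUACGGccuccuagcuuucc
let-7c-1-3p: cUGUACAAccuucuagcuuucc
let-7i-3p: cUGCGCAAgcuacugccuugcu
let-7g-3p: aCUGUACAggccacugccuugc
let-7a-5p: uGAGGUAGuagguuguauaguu
The seed UAUACAA was shared by 4 of the 10 passenger strands, let-7a-1-3p, let-7b-3p, let-7c-2-3p and let-7f-1-3p, and the other 6 each had a seed of their own. The guides, by contrast, all carried the seed GAGGUAG. The 45 pairs of passenger strands were compared base by base from the 5' end without gaps, and the median identity was 72.7%. Pairs with let-7g-3p were the lowest, at 14.3% to 27.3%, and no shifted alignment was tried. In 1 pair, let-7a-1-3p and let-7c-2-3p, there was no mismatch at all. A read of either of those names could come from either hairpin. let-7f-2-3p differed from this pair at 1 of the 21 positions compared.

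The identical arms lie in hairpins on different chromosomes. In the RefSeq hairpins below the 3p arm is in capitals, and the sequence the hairpins share extends only 3 bases before the arm and 1 base after it.
Mirlet7a-1: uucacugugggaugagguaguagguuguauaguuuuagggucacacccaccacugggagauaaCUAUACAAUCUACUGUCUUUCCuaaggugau
Mirlet7c-2: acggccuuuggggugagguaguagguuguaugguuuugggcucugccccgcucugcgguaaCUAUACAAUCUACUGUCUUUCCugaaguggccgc
shared run: uaaCUAUACAAUCUACUGUCUUUCCu
In GRCm38.p6, Mirlet7a-1 lies on the minus strand at chr13:48538179-48538272, in exons of the long noncoding RNA 6720427I07Rik. Mirlet7f-1 (chr13:48537829-48537917) and Mirlet7d (chr13:48536012-48536114) follow in the same noncoding gene, with gaps of 261 and 1714 bases. Mirlet7c-2 lies on the plus strand at chr15:85706603-85706697, in an exon of the noncoding gene Lncppara, 621 bases before Mirlet7b (chr15:85707319-85707403). Other hairpins of the passenger strands followed here stand in introns of protein-coding or noncoding host genes. These are Mirlet7c-1 in Mir99ahg on chromosome 16, Mirlet7e in Spaca6 on chromosome 17, Mirlet7g in Wdr82 on chromosome 9 and Mirlet7f-2 in Huwe1 on chromosome X. Mirlet7i on chromosome 10 overlaps an exon of D630033A02Rik. The 4 letters GGAG, which LIN28 is known to bind in let-7 loops, were sought on the transcribed strand between the arms of 10 let-7 hairpins. They were found in 8 of these 10 (80%), the exceptions being those of let-7b and let-7c-2. Mirlet7a-2, a further let-7 hairpin on chromosome 9, was not among the 10. Outside let-7, the same letters stood in 44 of 634 mouse hairpin loops (6.94%), and in 5 of the 42 whose length is within the let-7 range of 23 to 34 bases (11.9%).

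Reads of the identical let-7a-1-3p and let-7c-2-3p were counted almost wholly under 1 name in some libraries and under the other in the rest. let-7a-1-3p held 11054, 6393 and 183 reads in controls 1 to 3, 75, 4170 and 659 in transgene libraries 1 to 3, and 7925, 6227 and 491 in knockout libraries 1 to 3. let-7c-2-3p held 100, 683 and 6563 reads in the controls, 7077, 538 and 6141 in the transgene libraries, and 142, 728 and 3061 in the knockout libraries. Wherever one was high the other was low, in every group. let-7a-1-3p took most of the pair's reads in 5 libraries and let-7c-2-3p in 4.

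As a share of the pair, let-7a-1-3p ran from 1.05% (transgene 1, 95% Wilson interval 0.837% to 1.31%) to 99.1% (control 1, 98.9% to 99.3%). The shares of the other libraries were 90.3% and 2.71% in controls 2 and 3, 88.6% and 9.69% in transgene 2 and 3, and 98.2%, 89.5% and 13.8% in knockout 1 to 3. No interval reached more than 1.14 percentage points to either side, and all intervals cover counting error only. Each group held libraries at both ends. By the replicate number in the titles, libraries numbered 2 had 90.3%, 88.6% and 89.5%, in the order control, transgene, knockout. Those numbered 3 had 2.71%, 9.69% and 13.8%, and those numbered 1 had 99.1%, 1.05% and 98.2%. What the number stands for is not given in the labels, and its relation to the shares was not tested. Among the other names with identical mature sequences, miR-199a-3p took 6.48%, 13.2% and 16.8% of the reads it shares with miR-199b-3p in the controls, 83.7%, 84.8% and 16.1% in the transgene libraries and 95.5%, 16.6% and 17.3% in the knockout libraries. By replicate number, the miR-199a-3p shares were close only in the libraries numbered 3, at 16.8%, 16.1% and 17.3%. Across the 9 libraries the miR-199 share and the let-7 share had a Pearson correlation of 0.11. How a read with several possible names received one is not given in the sources used.

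**Figure D1:**
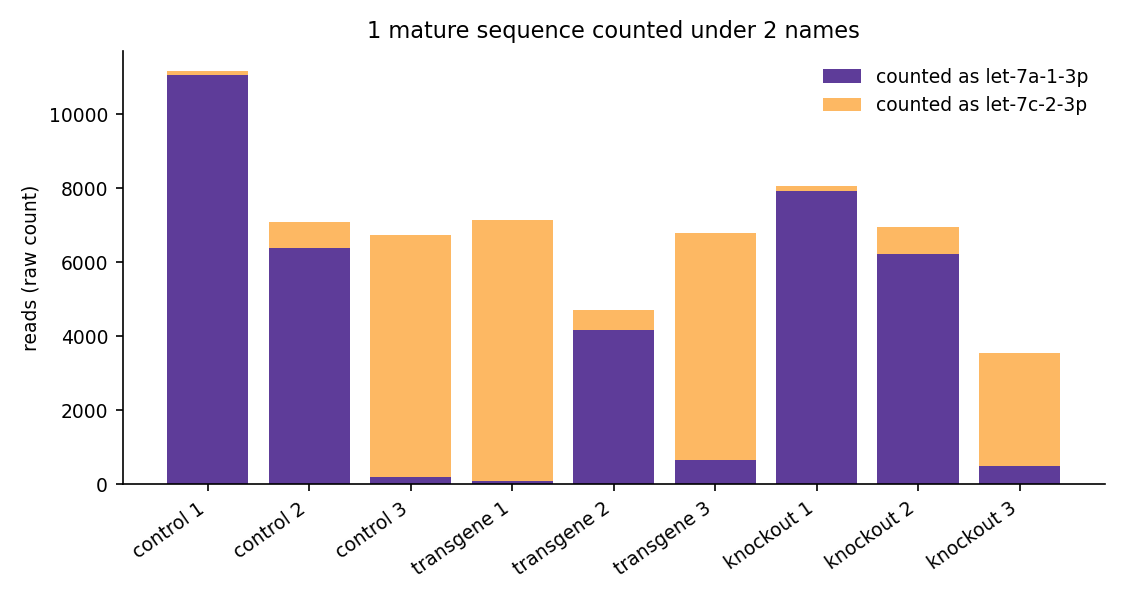
Stacked bars of the raw reads counted under let-7a-1-3p and under let-7c-2-3p (vertical axis) in each of the 9 libraries (horizontal axis), so that bar height is their sum. The names trade places within every group, while the sum runs from 3552 to 11154 reads.

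Added together, the pair held 11154, 7076 and 6746 reads in the controls, 7152, 4708 and 6800 in the transgene libraries and 8067, 6955 and 3552 in the knockout libraries. In TMM-scaled CPM (reads per 1e6 miRNA reads, the unit of all levels below) the sum was 350, 295 and 248 in the controls, 259, 145 and 234 in the transgene libraries and 272, 283 and 129 in the knockout libraries. This unit is relative to the miRNA reads of a library, so a change common to all miRNAs would not show in it. The lowest values of the sum were those of transgene 2 and knockout 3, and the 3 groups overlapped. Tested as 1 feature, the pair differed from the controls by a log2 fold change of -0.49 (SE 0.36, edgeR quasi-likelihood test, adjusted p = 0.636) in the transgene group and by -0.40 (SE 0.36, adjusted p = 0.525) in the knockout group. The transgene difference was -0.20 without transgene 2, and the knockout difference was -0.01 without knockout 3.

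Tested under their separate names, let-7a-1-3p and let-7c-2-3p gave differences of opposite sign in the transgene comparison and between knockout and transgene, and of the same sign in the knockout comparison. In the transgene group let-7a-1-3p stood at a log2 fold change of -2.01 (SE 1.56, edgeR adjusted p = 0.642) and let-7c-2-3p at 0.83 (SE 1.51, adjusted p = 0.896). The standard errors were over 4 times that of the sum. In the knockout group the fold changes were -0.20 (SE 1.50) for let-7a-1-3p and -0.91 (SE 1.52) for let-7c-2-3p, and these turned to 0.44 without knockout 3 and to 1.59 without control 3. Between knockout and transgene libraries let-7a-1-3p differed by 1.81 (SE 1.55) and let-7c-2-3p by -1.74 (SE 1.55), while their sum differed by 0.09 (SE 0.36).

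let-7d-3p was by far the most abundant of the passenger strands. All members are 21 to 22 bases long, so their levels in CPM need no correction for length, but differences between strands in ligation and amplification were not measured. In order of mean level, let-7d-3p at 1662 CPM was followed by the let-7a-1-3p and let-7c-2-3p sum (246), let-7i-3p (184), let-7e-3p (139), let-7f-2-3p (49.0), let-7f-1-3p (20.5), let-7b-3p (6.31), let-7c-1-3p (5.85) and let-7g-3p (2.26). let-7d-3p made up between 64.6% and 76.8% of the summed passenger reads of a library. Its range over the libraries lay wholly above that of every other member.

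Some neighbours in that order could not be separated by their spread. The pair's sum exceeded let-7i-3p in 6 of 9 libraries, let-7i-3p exceeded let-7e-3p in 6 of 9, and let-7b-3p exceeded let-7c-1-3p in 5 of 9. The ranges of let-7e-3p, let-7f-2-3p, let-7f-1-3p and let-7b-3p did not overlap from one to the next, and neither did those of let-7c-1-3p and let-7g-3p. Of 955 miRNAs with enough reads to be tested, let-7d-3p ranked 80 by mean level and let-7g-3p, with 40 to 96 reads per library, ranked 644.

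**Figure D2:**
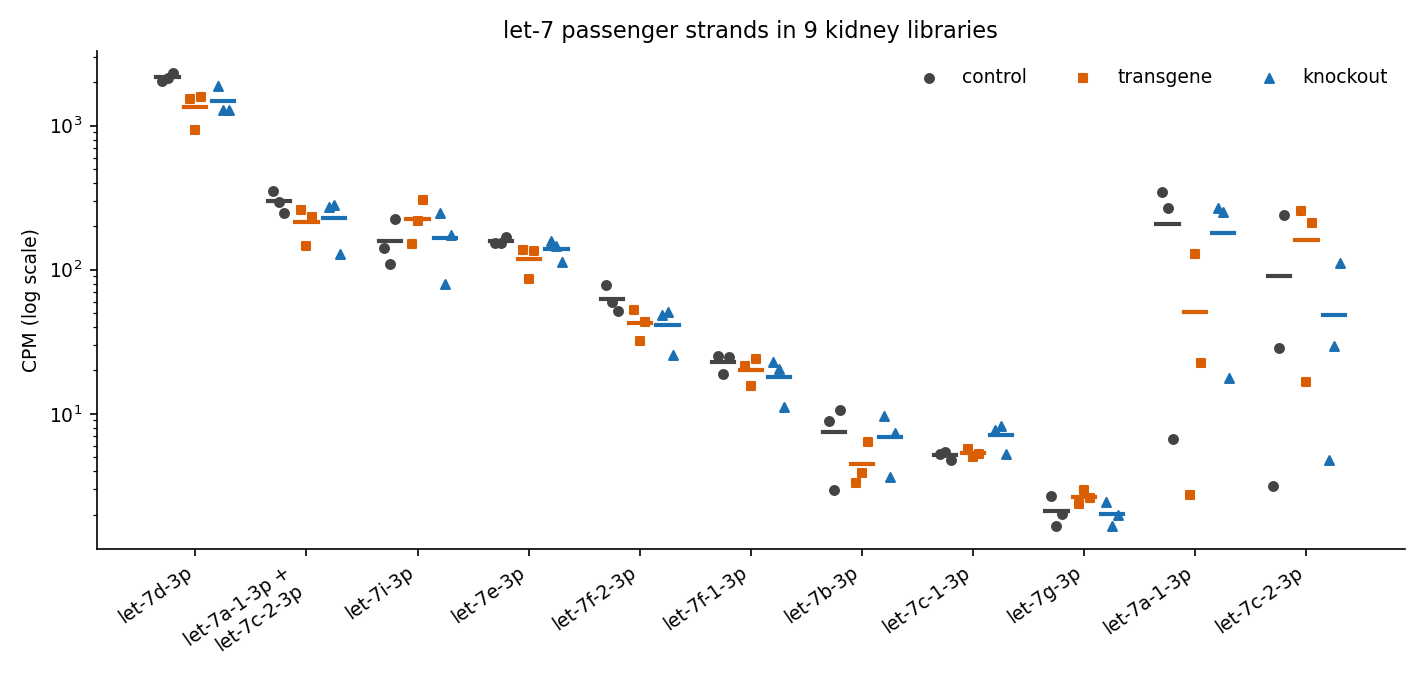
Level of each passenger strand in CPM (log axis) in the 9 libraries, with points coloured by group, lines at group means, and let-7a-1-3p and let-7c-2-3p shown summed and, at the right, alone. let-7d-3p lies between 929 and 2303 CPM, above every other member, and its 3 control points lie above all transgene and knockout points.

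let-7d-3p was lower in both DROSHA groups than in any control. Its level was 2039, 2142 and 2303 CPM in the controls, 1538, 929 and 1578 in the transgene libraries and 1871, 1277 and 1277 in the knockout libraries. Control means of 2162 ± 133 (SD, n = 3) compare with 1348 ± 364 in the transgene group and 1475 ± 343 in the knockout group. Neither altered group overlapped the controls, and transgene 2 was the lowest library of all.

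These differences did not pass the test across all miRNAs. The transgene fold change of let-7d-3p was -0.68 on the log2 scale (SE 0.26, edgeR adjusted p = 0.529), and -0.40 without transgene 2. The knockout fold change was -0.55 (SE 0.26, edgeR adjusted p = 0.217), and -0.37 without knockout 3. With library size taken as miRNA reads and no TMM factor, which moves the median log2 fold change of all miRNAs to 0.18 in the transgene and 0.19 in the knockout comparison, the let-7d-3p fold changes were -0.48 and -0.33. Knockout 1 then stood at 2084 CPM, inside the control range of 1860 to 2132, so the knockout group overlapped the controls. let-7d-3p differed between knockout and transgene libraries by 0.13 (SE 0.26), which turned to -0.11 without knockout 1 and to -0.10 without transgene 2.

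The summed level of marker miRNAs of kidney epithelium was also lower in both DROSHA groups than in any control. That of erythroid markers was higher in the knockout libraries than in any control, and the other ranges given here overlapped the controls. Markers were read only as sums, which abundant members dominate. Summed over 8 miRNAs of kidney epithelium, the level was 115290 to 139160 CPM in controls, 67326 to 111110 in transgene and 37636 to 80923 in knockout libraries. Summed over 4 erythroid miRNAs it was 21371 to 52280, 27202 to 79986 and 71656 to 112180 CPM, and over 4 miRNAs of striated muscle 217 to 1230, 455 to 1618 and 451 to 10059, the last value from knockout 3. All listed markers had reads in all libraries. Their part in the let-7d-3p difference was not tested. In whole kidneys, fewer cells of a type and less RNA per cell cannot be told apart.

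let-7e-3p, which is processed from the miR-99b and miR-125a cluster, stood at 154, 153 and 169 CPM in the controls, 138, 85.7 and 134 in the transgene libraries and 158, 145 and 112 in the knockout libraries. The transgene libraries all lay below the controls, while knockout 1 lay inside the control range. The transgene fold change was -0.41 on the log2 scale (SE 0.26, edgeR adjusted p = 0.603), and -0.15 without transgene 2. With no TMM factor, or with all counted reads as library size, the groups overlapped. The knockout fold change was -0.20 (SE 0.26), which turned to 0.03 without knockout 3.

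let-7f-2-3p, from the hairpin that neighbours miR-98 on the X chromosome, stood at 77.7, 59.3 and 51.4 CPM in the controls, 52.4, 32.1 and 43.3 in the transgene libraries and 48.4, 50.6 and 25.7 in the knockout libraries. The knockout libraries all lay below the controls, and transgene 1 lay just above control 3. Its fold changes were -0.56 (SE 0.34, edgeR adjusted p = 0.580) in the transgene group and -0.60 (SE 0.34, adjusted p = 0.313) in the knockout group, and -0.32 without transgene 2 and -0.25 without knockout 3. With DESeq2-style size factors or no TMM factor the knockout and control libraries overlapped.

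let-7f-1-3p comes from the chromosome 13 cluster that also encodes let-7a-1 and let-7d. It stood at 25.3, 19.0 and 24.8 CPM in the controls, 21.3, 15.6 and 23.9 in the transgene libraries and 23.0, 20.4 and 11.1 in the knockout libraries, with overlap throughout. Its fold changes were -0.18 (SE 0.33) in the transgene group, 0.04 without transgene 2, and -0.34 (SE 0.33) in the knockout group, 0.0040 without knockout 3.

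let-7i-3p had its highest mean in the transgene group, at 225 ± 77.5 CPM (SD, n = 3) against 158 ± 59.8 in the controls and 167 ± 84.3 in the knockout group. Its level was 141, 109 and 225 CPM in the controls, 152, 218 and 306 in the transgene libraries and 247, 79.0 and 175 in the knockout libraries. Transgene 3 was the highest library and knockout 2 the lowest, and the groups overlapped. The fold change was 0.51 (SE 0.46, edgeR adjusted p = 0.723) in the transgene group, and 0.25 without control 2 or 0.28 without transgene 3.

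The remaining passenger strands were scarce. let-7b-3p stood at 8.89, 2.96 and 10.6 CPM in the controls, 3.30, 3.91 and 6.33 in the transgene libraries and 9.72, 3.66 and 7.38 in the knockout libraries, a transgene fold change of -0.73 (SE 0.53, edgeR adjusted p = 0.640), and -1.16 without control 2. let-7c-1-3p stood at 5.25, 5.46 and 4.78 CPM in the controls, 5.73, 4.99 and 5.23 in the transgene libraries and 7.70, 8.26 and 5.28 in the knockout libraries, a knockout fold change of 0.46 (SE 0.26, adjusted p = 0.313). Both knockout 1 and knockout 2 lay above every control for let-7c-1-3p, but knockout 3 did not, and the fold change was 0.73 without knockout 3 and 0.30 without knockout 2. let-7g-3p stayed between 1.67 and 2.96 CPM in all libraries, with a transgene fold change of 0.32 (SE 0.28), 0.13 without control 2, and its groups overlapped.

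Counted together, none of the 10 passenger strands passed edgeR's adjusted threshold of 0.05 in any of the 3 comparisons. Over all 955 miRNAs the called share was 0% for transgene against control, 0% for knockout against control and 0.105% for knockout against transgene. At an unadjusted p below 0.05, 1 of the 10 (let-7d-3p, lower) was past the threshold in the transgene comparison, where 8.80% of all miRNAs were (3.56% lower), 0 in the knockout comparison, where 25.7% were, and 0 between knockout and transgene, where 7.02% were. DESeq2 called none of the members or the pair in any comparison, against 4, 113 and 3 of all miRNAs.

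Libraries of the groups did not overlap for 2 of 10 members, let-7d-3p and let-7e-3p, in the transgene comparison (24.0% of all miRNAs), for 2 of 10, let-7d-3p and let-7f-2-3p, in the knockout comparison (28.5%), and for none between knockout and transgene (10.4%). All of these lay lower. The counts are in TMM-scaled CPM, and which members separated changed with the scale, as given above. Among all miRNAs, 12.0% lay lower without overlap in the transgene comparison and 15.6% in the knockout comparison. The members' share of 20% in each is above these lower-only shares and below the shares in either direction. The median log2 fold change of the 10 was -0.30 in the transgene comparison, with 6 negative, against -0.04 for all miRNAs. In the knockout comparison the median was -0.20, with 8 negative, against -0.03 for all miRNAs. Both DROSHA groups are compared with the same 3 controls, so these lists of values are not independent.

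**Figure D3:**
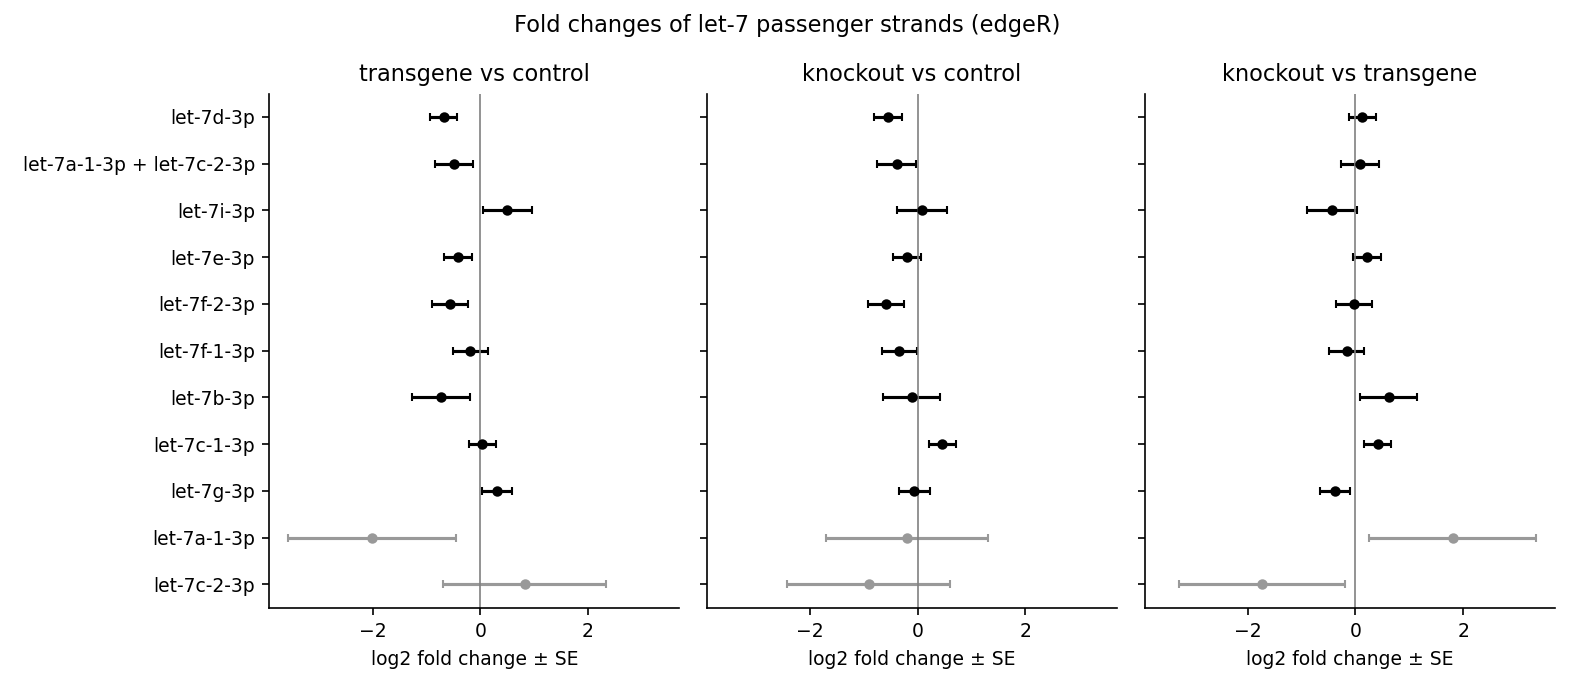
Log2 fold change of each passenger strand (points) with its standard error (bars) in the 3 comparisons, from the edgeR fit, with let-7a-1-3p and let-7c-2-3p alone in grey. Bars of the separately counted let-7a-1-3p and let-7c-2-3p are the longest, and that of their sum is shorter by a factor of more than 4.

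The summed level of the 10 passenger strands was 2805, 2788 and 3040 CPM in the controls, 2171, 1437 and 2334 in the transgene libraries and 2640, 1869 and 1744 in the knockout libraries. Neither DROSHA group overlapped the controls. The mean differed from that of the controls by -897 CPM in the transgene group (0.688 of the control mean) and by -793 CPM in the knockout group (0.724 of it). An exact two-sided permutation test gave p = 0.1 for each, the smallest that 3 libraries against 3 allow, with an adjusted p of 0.15 over the 3 comparisons.

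Most of that difference was let-7d-3p. Without it, the summed level was 766, 646 and 736 CPM in the controls, 634, 508 and 755 in the transgene libraries and 769, 592 and 467 in the knockout libraries, and the groups overlapped (exact permutation p = 0.4 for both against control). With no TMM factor, the differences of the full sum were -534 CPM (exact permutation p = 0.3) and -402 CPM (p = 0.4), and the groups overlapped as well.

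Passenger strands were also set against their guides, which needs no library size. The let-7a, let-7c and let-7f guides each come from more than 1 hairpin, so the hairpins of each were joined. let-7a and let-7c, whose guides differ in sequence, were also joined to each other, because let-7a-1-3p and let-7c-2-3p are identical. That unit includes let-7a-2-3p, which is not a member of the set. let-7d-3p made up 8.73%, 9.27% and 10.4% of the let-7d reads in the controls, 6.29%, 5.97% and 8.79% in the transgene libraries and 13.3%, 7.91% and 10.4% in the knockout libraries, each with a Wilson interval within 0.103 percentage points. Groups overlapped, with transgene 1 and 2 lowest and knockout 1 highest. The log2 ratio of 3p to 5p reads differed from the controls by -0.49 (SE 0.30) in the transgene group and by 0.14 (SE 0.30) in the knockout group, where it was -0.07 without knockout 1.

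let-7e-3p made up 1.63% to 1.89% of let-7e reads in the controls, 1.22% to 1.78% in the transgene libraries and 1.77% to 2.73% in the knockout libraries. let-7i-3p made up 0.282% to 0.570%, 0.485% to 1.02% and 0.261% to 0.910% of let-7i reads. let-7g-3p, at the low end, was 0.00925% to 0.0208% of let-7g reads over all libraries. Read over the libraries together, the passenger share ran from 0.0156% (let-7g) through 0.0677% (let-7b), 0.328% (let-7f), 0.457% (let-7a with let-7c), 0.591% (let-7i) and 1.72% (let-7e) to 8.82% (let-7d).

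Against other hairpins, these shares are low, except for let-7d. The comparison used the 312 hairpin units, of 670 with both arms, that had a mean of at least 10 reads in each arm. Hairpins with a scarcer minor arm were thus left out, and the ranks below hold only among the 312. Their minor arm had a median share of 6.12%. For let-7g only 2 hairpins had a smaller minor share, for let-7b 10, for let-7f 34, for let-7a with let-7c 41, for let-7i 51 and for let-7e 86. For let-7d 177 had a smaller one, which puts it near the middle of these hairpins.

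**Figure D4:**
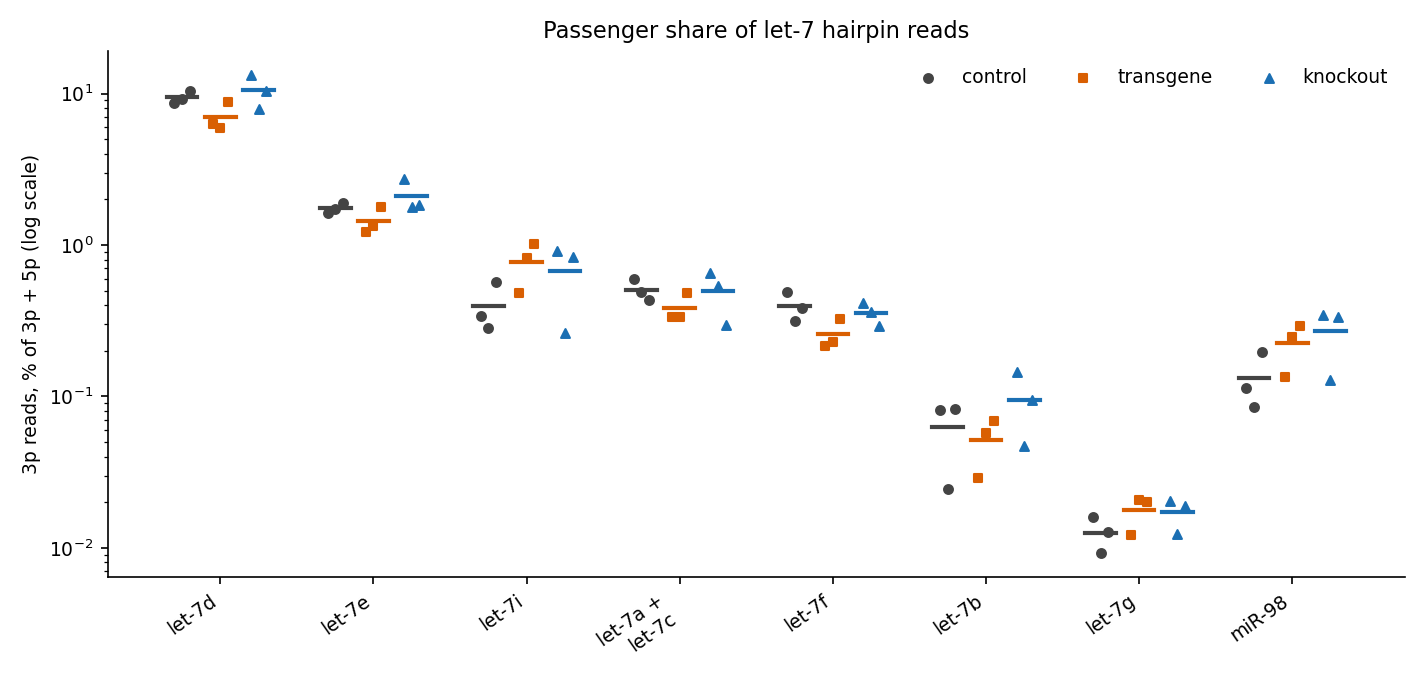
Share of the 3p strand in the 3p and 5p reads of each let-7 unit and of miR-98 (percent, log axis) in the 9 libraries, with points coloured by group and lines at group means. The let-7 units are spread over nearly 3 orders of magnitude, from let-7g near 0.0156% to let-7d near 8.82%, and within each unit the groups overlap.

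None of the 7 let-7 arm ratios passed the limma test at an adjusted threshold of 0.05 in any comparison, nor at an unadjusted p below 0.05. Over all 312 hairpins the adjusted calls were 0% in both comparisons with the control and 0.321% between knockout and transgene, and the unadjusted shares 4.49%, 7.05% and 8.01%. Groups overlapped for all 7 in every comparison, where 10.9%, 13.8% and 12.8% of hairpins did not. The transgene difference was -0.62 (SE 0.29, adjusted p = 0.788) for let-7f and 0.97 (SE 0.53, adjusted p = 0.788) for let-7i on the log2 scale.

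The passenger shares did not vary as 1 group. Over the 9 libraries, the Pearson correlation of log2 arm ratios was 0.94 between let-7d and let-7e and 0.83 between let-7f and let-7a with let-7c. It was 0.94 between let-7i and miR-98, a let-7 relative, and 0.86 between let-7g and miR-98, but 0.21 between let-7d and let-7i. Ratios of 1 library share its preparation and depth, so these are descriptions without a p. In CPM, let-7f-2-3p followed the let-7a-1-3p and let-7c-2-3p sum with a correlation of 0.97, and the sequences differ at 1 of the 21 positions compared. Correlation with that sum did not simply follow likeness of sequence. It was 0.85 for let-7f-1-3p (3 mismatches), 0.83 for let-7e-3p (6 mismatches) and 0.02 for let-7b-3p (3 mismatches).

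Among 447 miRNAs outside the let-7 family with a mean of at least 10 CPM, the levels most like the summed passenger level over the 9 libraries were those of miR-182-5p (Pearson r = 0.93), miR-744-3p (0.93), miR-378a-5p (0.88), miR-92b-3p (0.86) and miR-125a-5p (0.85). All share the libraries and their scaling factors.

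The guides were then counted in the same way. None of 9, the let-7 guides and miR-98-5p, passed the adjusted threshold of edgeR or DESeq2 in any comparison. At an unadjusted edgeR p below 0.05 there were 1 in the transgene comparison (3.56% of all miRNAs were lower by that threshold), 5 in the knockout comparison (10.1% lower) and 3 between knockout and transgene (3.56% lower), all lower. Knockout and control libraries did not overlap for 8 of the 9, all lower (15.6% of all miRNAs lay lower without overlap), and the median log2 fold change was -0.49. That separation was counted in TMM-scaled CPM only. The TMM factors were 0.912, 0.882 and 0.926 in the controls and 1.11, 1.01 and 1.03 in the knockout libraries. They raise control levels and lower knockout levels, and the guides were not recounted without them. In the transgene comparison 1 of the 9, let-7i-5p, lay lower without overlap (12.0% of all miRNAs lay lower without overlap), with 41168, 38654 and 39231 CPM in the controls and 31120, 26296 and 29701 in the transgene libraries (edgeR log2 fold change -0.45, SE 0.16, adjusted p = 0.529). let-7d-5p was lower in the knockout libraries at 12165, 14862 and 11049 CPM than in the controls at 21330, 20962 and 19840 CPM. Its fold change of -0.71 (SE 0.20, edgeR adjusted p = 0.108) was of the same sign as that of let-7d-3p there.

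Names listed as let-7 cluster neighbours were mixed. These 15 were arms of miR-98, miR-99, miR-100 and miR-125 hairpins, with let-7a-2-3p, let-7j and let-7k from the let-7 family itself. Where let-7j and let-7k lie relative to other hairpins was not examined. Of the 15, none passed the adjusted edgeR threshold in any comparison. DESeq2 called 1, let-7k, lower in the knockout comparison, where it called 113 of all 955 miRNAs. At an unadjusted edgeR p below 0.05 there were 2 lower in the transgene comparison (3.56% of all miRNAs), 1 higher (15.6%) and 3 lower (10.1%) in the knockout comparison, and 4 higher between knockout and transgene (3.46%). In the knockout comparison 9 had a positive and 6 a negative fold change, and 6 lay higher (12.9% of all miRNAs) and 3 lower (15.6%) without overlap. The 3 lower were let-7j, let-7k and miR-125a-5p, and let-7a-2-3p was among the 6 higher. miR-125a-5p, a neighbour of let-7e, had a log2 fold change of -0.58 (SE 0.19, adjusted p = 0.529) in the transgene comparison and -0.47 (SE 0.19, adjusted p = 0.182) in the knockout comparison. let-7a-2-3p, the passenger strand of the remaining let-7a hairpin, was held in this list and stood at 1.70 to 3.98 CPM. Its knockout libraries, at 3.98, 2.89 and 2.39 CPM, lay above every control and transgene library. The log2 fold change was 0.61 (SE 0.28, edgeR adjusted p = 0.201) against control and 0.81 (SE 0.28, edgeR adjusted p = 0.643) against transgene. In the transgene comparison it was -0.20 (SE 0.28).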

How the data were processed

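Whole kidneys were frozen, RNA was extracted with Trizol and small RNA libraries were prepared with BGI protocols, per the labels' protocols. CASAVA 1.8, Bowtie2 and mm10 are named in the submitters' processing notes. The handling of reads with several matching names is not stated there. The deposited counts are whole reads per small RNA name, per the file headers. The deposited TPM column is the count per 1e6 of all counted reads and was not used. Totals were 31743004 to 42609889 reads per library, of which 24350500 to 34896599 were known miRNA reads. Known miRNA reads made up 81.9%, 80.9% and 81.8% of the counted reads in controls 1 to 3. They made up 78.4%, 76.9% and 79.1% in the transgene libraries and 74.7%, 76.7% and 77.0% in the knockout libraries. Both DROSHA groups thus lay below the controls, and this difference was not tested. Molecular identifiers were absent, so intervals cover counting error only.

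Mature and hairpin counts of 1 name were added. edgeR 4.0.16 (TMM, filterByExpr, quasi-likelihood F test, Benjamini-Hochberg over 955 miRNAs, threshold 0.05) was fitted in R 4.3.3 over all 9 libraries with 3 groups. let-7a-1-3p and let-7c-2-3p were also summed and refitted as 1 feature. Arm ratios (log2 of the 3p against the 5p count, 1 added to each) were tested with limma 3.58.1 over 312 hairpin units with a mean of at least 10 reads per arm. Summed levels were compared with exact permutation tests, and shares have Wilson intervals at a confidence level of 95%. DESeq2 1.42.0, other scalings, filters and pseudocounts, mature counts only, a replicate block and leaving out each library were tried. The scripts were tested on simulated data. Named were all members, their guides, cluster neighbours and the 5 miRNAs most like the summed level. Members and lists, including the markers of cell types, were chosen with earlier results of these data known. Summed marker levels not given above were 45278 to 56513 CPM (controls), 36660 to 45595 (transgene) and 34553 to 48793 (knockout) for endothelium, and 481 to 1420 CPM for leukocytes, 1883 to 3425 for neural cells and 1107 to 21598 for endocrine pancreas and liver over all libraries. Of the 1607 names, 1355 matched a RefSeq mature sequence, all 10 members among them.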

Additional observations from a re-analysis of the deposited data

Results flagged for a closer look

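Reads assigned to the Rfam let-7 precursor family, a class outside the miRNA names, were above the controls' 281 to 292 reads per 1e6 counted in transgene 3, at 401, and in knockout 3, at 462. They stood out because no comparison above uses them. The other 4 altered libraries were at 214 to 283. What set these libraries apart was not tested.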

How the results depend on the processing

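No passenger strand passed edgeR's or DESeq2's adjusted threshold under any of the 552 alternative values computed (lowest adjusted p = 0.142). Of these, 520 kept the direction and 32 reversed. Of 294 alternative arm ratios 282 kept it and 12 reversed (lowest adjusted p = 0.272), and of 42 summed levels 39 kept it and 3 reversed. The cause of each reversal was not tested. With no TMM factor let-7f-1-3p stood at 0.028 in the transgene comparison, and in the knockout comparison let-7a-1-3p stood at 0.036, let-7b-3p at 0.11, let-7e-3p at 0.020 and let-7g-3p at 0.16, the last at 0.052 with all counted reads as library size. The let-7g ratio between knockout and transgene was 0.0071 with a pseudocount of 5 reads, and the summed level without let-7d-3p differed there by -23.0 CPM. DESeq2 called 4 miRNAs in the transgene comparison, 113 in the knockout comparison and 3 between knockout and transgene. Titles number the replicates alike, but over the 955 miRNAs tested libraries of the same number had correlated deviations of -0.30 to 0.10 only. The let-7a-1-3p share of its pair was nonetheless alike in all libraries numbered 2 and low in all numbered 3, as given above. With the replicate block 0 miRNAs and 0 arm ratios were called between knockout and transgene, let-7a-1-3p stood at 0.014 in the knockout comparison, and no call of a passenger strand changed. A minimum mean of 1 read gave 0 arm ratios there.
Leaving out each library, the miRNAs called numbered 0 to 48 in the knockout comparison (48 without knockout 1) and 0 to 1 between knockout and transgene, and the arm ratios called 0 to 1 in both (1 without knockout 2 in the knockout comparison). In the knockout comparison the log2 fold change ran from -0.77 to 0.44 for let-7a-1-3p, -0.53 to 0.20 for let-7b-3p, -2.31 to 1.59 for let-7c-2-3p, -0.26 to 0.027 for let-7e-3p, -0.49 to 0.0040 for let-7f-1-3p, -0.24 to 0.11 for let-7g-3p and -0.31 to 0.40 for let-7i-3p. In the transgene comparison it ran from -0.068 to 0.16 for let-7c-1-3p and -0.34 to 0.043 for let-7f-1-3p. Between knockout and transgene it ran from -0.11 to 0.26 for let-7d-3p, -0.37 to 0.12 for let-7f-1-3p, -0.21 to 0.24 for let-7f-2-3p and -0.12 to 0.41 for the let-7a-1-3p and let-7c-2-3p sum, and the summed level from -174 to 280 CPM. Arm ratios ran from -0.33 to 0.23 (let-7a with let-7c), -0.066 to 0.35 (let-7d) and -0.30 to 0.020 (let-7f) in the knockout comparison, -0.75 to 0.20 (let-7b) in the transgene comparison, and -0.27 to 0.20 (let-7g) and -0.67 to 0.24 (let-7i) between knockout and transgene. The lowest depth behind a passenger strand was that of let-7g-3p, with 40 to 96 reads per library.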
